A study of Mus musculus with 36 samples.

Results

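The proteasome genes of mouse CD4 T cells were followed across 6 culture conditions. Members were all genes of the deposited count table whose symbol starts with Psma, Psmb, Psmc, Psmd, Psme, Psmf or Psmg and a digit, without the interferon-inducible subunits Psmb8, Psmb9 and Psmb10. The rule found 46 of 20817 genes. It uses names alone, although it was written with earlier results of these data known. Of these, 45 code for subunits, regulators or assembly chaperones of the proteasome. Psmc3ip carries a proteasome-like name, but its protein works in meiotic recombination. It was left out of every count of proteasome genes below and is given on its own. Psma8 did not reach the minimum count for testing, which left 44 proteasome genes among the 11526 genes tested.

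Naive CD4 T cells (CD4+ CD44- CD62L+ CD25-) were sorted from the spleens of wild-type C57BL/6 mice and activated on plates coated with antibodies to CD3 and CD28. Cells of the group Th17p, the pathogenic type of IL-17 producing helper cell, were polarised with 3 cytokines, namely IL-23 and IL-1b (20 ng/ml of either) plus 25 ng/ml of IL-6. Cells of the group Th17n, the non-pathogenic type, received IL-6 at 25 ng/ml and TGF-beta 1 at 2 ng/ml. Induced regulatory T cells (iTreg) received TGF-beta 1 at 2 ng/ml and no IL-6. Parallel cultures of each lineage had either vehicle or DFMO at 100 µM. DFMO, or difluoromethylornithine, blocks ornithine decarboxylase, the enzyme that starts polyamine synthesis. Live cells were sorted at 68 h. Each of 3 animals gave 1 library to every group, which makes 18 libraries in 6 groups. The lineages are cultures polarised with cytokines and were not sorted for a lineage marker such as IL-17 or Foxp3 at harvest, as far as the labels say.

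The proteasome is the protease complex that degrades proteins tagged with ubiquitin. Its core particle is a barrel of stacked rings, with beta rings, which carry the catalytic sites, between outer alpha rings. The regulatory particle caps the barrel and consists of a base, with a ring of ATPases that unfolds the substrate, and a lid, which removes the ubiquitin chain. Other activators can take the place of the cap and open the core without ATP. In T cells the complex is known for the turnover of cell cycle regulators and of inhibitors of NF-kappaB, and for making the peptides shown on MHC class I. Ornithine decarboxylase, the target of DFMO, is a textbook substrate that is led to the proteasome by antizyme, without ubiquitin.

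Promoter sequences describe the members apart from their expression. RefSeq promoters (GRCm38.p6, 250 bases before to 50 bases after the annotated start) were found for 37 of the 45 proteasome genes. CCGGAA, a core of the sites bound by ETS transcription factors, was present on either strand in windows of 20 of the 37 genes (54.1%). It was present in 14.9% of 32851 mouse promoters of the same length. A gene counted if any of its windows matched, and 3 genes had more than 1 start. Shares of all promoters are per window and so not strictly comparable. TGACNNNGC, the core of the antioxidant response element that is also read by Nfe2l1, was present in 6 genes (16.2%, against 12.4% of all promoters). CCAAT, the box bound by NF-Y, was present in 13 genes (35.1%, against 37.4%). The core of the interferon-stimulated response element (GAAA, any pair of bases, GAAA) was present in 5 (13.5%, against 3.44%). Matches of the 4 motifs may overlap one another. A match is a string of letters and not a measured binding site, and no set of promoters was tested against another. The windows of 4 members on which the results below turn are printed 5′ to 3′ on the strand of the gene. Psmc5 is the ATPase with the largest rise under DFMO in Th17n cells, Psme3 the activator that rose most, Psmb5 a catalytic core subunit, and Psme1 an activator that fell. Capitals mark CCGGAA (or TTCCGG, the same site on the other strand) in Psmc5 and Psme3, with the CCAAT box of Psme3 (ATTGG on this strand), TGACNNNGC in Psmb5, and the interferon-stimulated response element core, on the other strand, in Psme1.
Psmc5, chr11:106255935-106256234, + strand: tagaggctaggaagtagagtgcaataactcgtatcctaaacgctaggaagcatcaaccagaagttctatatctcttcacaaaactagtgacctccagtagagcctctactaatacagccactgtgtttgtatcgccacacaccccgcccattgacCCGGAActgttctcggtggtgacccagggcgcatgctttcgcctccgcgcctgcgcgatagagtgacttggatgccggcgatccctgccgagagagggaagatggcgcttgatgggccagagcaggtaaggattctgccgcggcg
Psme3, chr11:101315963-101316262, + strand: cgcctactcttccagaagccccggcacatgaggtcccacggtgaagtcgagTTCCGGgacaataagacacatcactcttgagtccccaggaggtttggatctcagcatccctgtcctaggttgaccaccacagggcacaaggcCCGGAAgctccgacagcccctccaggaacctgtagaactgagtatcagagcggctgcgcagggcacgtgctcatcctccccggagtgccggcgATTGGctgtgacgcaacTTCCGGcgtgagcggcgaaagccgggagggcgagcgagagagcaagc
Psmb5, chr14:54617946-54618245, - strand: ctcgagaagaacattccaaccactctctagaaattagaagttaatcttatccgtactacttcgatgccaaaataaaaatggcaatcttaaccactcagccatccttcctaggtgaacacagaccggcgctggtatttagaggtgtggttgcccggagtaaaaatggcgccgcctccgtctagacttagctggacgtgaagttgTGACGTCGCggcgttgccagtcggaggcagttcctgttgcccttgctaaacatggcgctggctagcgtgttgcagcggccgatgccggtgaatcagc
Psme1, chr14:55578244-55578543, + strand: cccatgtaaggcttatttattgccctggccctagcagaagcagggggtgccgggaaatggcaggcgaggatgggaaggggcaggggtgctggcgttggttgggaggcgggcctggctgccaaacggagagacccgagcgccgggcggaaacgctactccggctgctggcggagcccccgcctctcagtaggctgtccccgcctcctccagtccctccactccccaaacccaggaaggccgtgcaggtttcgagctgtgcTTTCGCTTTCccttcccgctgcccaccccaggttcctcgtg
The Psme3 window holds 3 matches of the ETS core, and those of Psmc5, Psmb5 and Psme1 hold 1 marked motif each. Of the 15 genes that rose under DFMO in all 3 lineages (below), 13 had a promoter window, and 8 of these held CCGGAA, 5 CCAAT, 2 the interferon-stimulated response element core and 1 TGACNNNGC.

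Libraries held 8307662 to 13986943 estimated counts. Levels below are CPM, counts relative to a library size adjusted with edgeR's TMM factors, given for animals 1, 2 and 3 in that order. The marker levels of this paragraph are the exception, as CPM on library totals without these factors. The factors were 1.07 to 1.09 in iTreg vehicle and 0.957 to 0.969 in iTreg DFMO libraries. Each change is a log2 fold change ± its standard error (SE), with n = 3 animals per group, and genes were called at an adjusted p under 0.05 (edgeR's quasi-likelihood test, Benjamini-Hochberg over 11526 genes). The verbs rose and fell are kept for called genes. The T cell markers Cd3d, Cd3e, Cd3g, Cd4, Cd28 and Lck were present in all 18 libraries, and Foxp3 was at 424 to 553 CPM in iTreg vehicle libraries and at most 1.5 CPM in Th17p vehicle libraries. Markers of B cells summed to at most 22.6 CPM, those of CD8 T cells to 7.68 to 26.6 CPM, those of NK cells to at most 9.58 CPM and those of red cells and platelets to at most 0.377 CPM in any library. Of 5 myeloid markers measured, Lyz2 was at 0 in every library, and their sum of 77.8 to 134.9 CPM was mostly Cst3. The summed level of the Th17 markers Il17a, Il17f, Rora and Ccr6 was lower in DFMO than in vehicle libraries of Th17p cells and higher in those of iTreg cells, without overlap, and overlapped in Th17n cells. The sum was 1860.0 to 1995 CPM in vehicle and 188 to 252 CPM in DFMO libraries of Th17p cells, 986 to 1255 and 696 to 1231 CPM in Th17n cells, and 100.2 to 114 and 125 to 162 CPM in iTreg cells. The iTreg sum was mostly Ccr6 (65.6 to 68.6 CPM in vehicle and 91.3 to 136 CPM in DFMO libraries), while Rora ranged lower (29.5 to 47.0 and 17.5 to 30.8 CPM) and Il17a was at most 0.23 CPM there. Il17f stood at 0.701 to 1.96 CPM in iTreg vehicle and 2.61 to 13.3 CPM in iTreg DFMO libraries. In Th17n cells the genes of the sum went different ways. Rora was lower in DFMO (51.7 to 102 CPM) than in vehicle libraries (155 to 185 CPM). Ccr6 was higher by a narrow margin (55.18 to 65.1 against 34.1 to 55.12 CPM), and Il17a and Il17f overlapped. The sum of the Treg markers Foxp3, Il2ra, Ctla4 and Ikzf2 was 1879 to 2085 CPM in Th17p vehicle against 1197 to 1232 CPM in Th17p DFMO libraries, 2209 to 2435 against 2056 to 2220.1 CPM in Th17n cells, and 1841 to 2227 against 1416 to 1503 CPM in iTreg cells. Il2ra made up the larger share of this sum. Ctla4 was lower in DFMO than in vehicle libraries of Th17p (178 to 202 against 407 to 493 CPM) and iTreg cells (37.8 to 40.2 against 203 to 253 CPM). It overlapped in Th17n cells. Ikzf2 was higher in DFMO than in vehicle libraries of Th17p cells (17.1 to 33.2 against 5.32 to 10.6 CPM) and overlapped in the other lineages. Foxp3 by itself was higher in DFMO than in vehicle libraries of Th17n cells, with 10.7 to 11.8 CPM in vehicle and 74.0 to 115 CPM in DFMO libraries, without overlap. In iTreg DFMO libraries Foxp3 was at 265 to 468 CPM. The share of Th17 or Treg cells in a culture was not measured, its part in the results below was not tested, and in bulk RNA fewer cells of a kind and less RNA per cell cannot be told apart.

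Levels per transcript length (TPM, the authors' length-scaled shares) set the roles apart. The core genes were the most abundant, with mean TPM over the 18 libraries of up to 620 (Psma2) among alpha and 525 (Psmb1) among beta genes and role medians of 334 and 341. The 6 ATPases of the base stood at 107 (Psmc2) to 187 TPM (Psmc6), and the 8 lid genes at 106 (Psmd3) to 237 TPM (Psmd8). Chaperones were scarcer, with 60.9 to 106 TPM for the core chaperones Psmg1 to Psmg4 and 18.5 to 40.7 TPM for the base chaperones Psmd5, Psmd9 and Psmd10. Activators covered a wide range: Psme1 and Psme2, the alpha and beta subunits of the PA28 ring, stood at 349 and 436 TPM, and Psme3, the nuclear gamma ring, and Psme4, the large activator PA200, at 24.9 and 4.55 TPM. Psma8, the alpha subunit of the testis proteasome, had 0 to 15 counts per library. Psmb11, the beta subunit of thymic epithelium, had 3.65 to 26.1 estimated counts, none of them whole in any run. Psmb11 was tested, but its values rest on reads shared with other sequences, so no weight was placed on its own result. It remains in the counts and medians of the 44 genes, in the counts of beta genes and in the core sums of TPM.

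**Figure D1:**
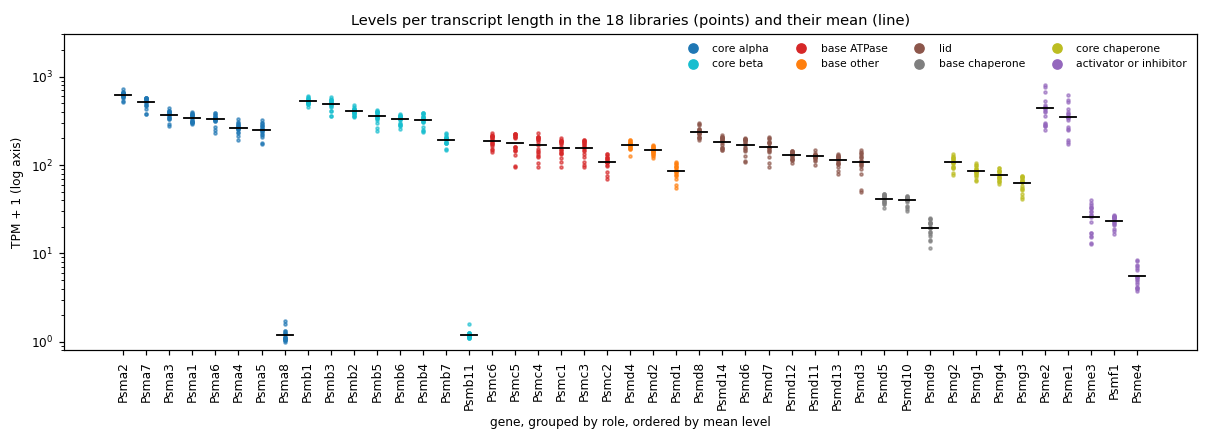
Level per transcript length of each proteasome gene (TPM + 1, log axis), grouped by role and ordered by the mean, with 1 point for each of the 18 libraries and a line at their mean. Core genes lie highest, with Psma2 at a mean of 620 TPM, and Psma8 and Psmb11 lie near 0 in every library.

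The first question was whether the lineages differ in proteasome genes without the inhibitor. Of 44 genes 15 were lower and 0 higher in Th17n than in Th17p vehicle cells, where 10.5% of all genes tested were lower and 9.47% higher. The median change of the 44 genes was -0.18, against -0.01 for all genes. All 15 had Th17n libraries below all Th17p libraries. The calls were made on these same libraries, so this adds no support to them. The 15 genes comprised 4 of 7 alpha genes (Psma3, Psma4, Psma5, Psma6) and 3 of 8 beta genes (Psmb3, Psmb4, Psmb5). They also held 4 of 6 ATPases (Psmc1, Psmc2, Psmc3, Psmc5), Psmd1, the lid genes Psmd6 and Psmd7, and the chaperone Psmd9. Psmd9 values were estimated from shared reads in every run, and those of Psma4 and Psmb3 in 86.1% of the run values, so these 3 calls are uncertain. For Psma5 and Psmc1 the shares were 50% and 38.9%.

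The ATPase Psmc5 had the largest fall among the called genes. It stood at 192, 174 and 159 CPM in Th17p and 129.7, 122 and 152 CPM in Th17n libraries, a change of -0.38 ± 0.09 (adjusted p = 0.0042). Psmc2, another ATPase, stood at 174, 190.0 and 172 against 133, 143 and 142 CPM (-0.36 ± 0.08, adjusted p = 0.0022). Psma3, an alpha ring subunit, stood at 545, 558 and 554 against 418, 431 and 448 CPM (-0.35 ± 0.07, adjusted p = 0.00097). The groups of each of these genes were apart without overlap, and none of the changes reached a factor of 1.5. The count depends on the animals and the scale. With 1 animal left out of all groups, 8, 4 and 7 of the genes were lower without animal 1, 2 and 3. Of all genes 731, 500 and 824 were lower in these fits, against 1212 with all animals. On log2(TPM + 1) 24 of the 44 genes were lower and 0 higher. On that scale 1781 of all genes were lower and 645 higher, with a median of -0.10 over all genes.

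Against Th17n cells, iTreg vehicle cells had 19 of 44 genes higher and 3 lower, where 18.4% of all genes were higher and 18.9% lower. The median change was 0.18, against 0.02 for all genes. Psme3, Psme2 and Psme1 had the 3 largest changes of the called proteasome genes, at 0.79 ± 0.11, 0.66 ± 0.08 and 0.55 ± 0.08. Psme3 stood at 35.8, 35.3 and 38.4 CPM in Th17n and 71.8, 56.0 and 61.8 CPM in iTreg libraries, which did not overlap. The 19 also held 5 of 6 ATPases, 3 of 7 alpha genes, 1 of 8 beta genes (Psmb5), the base scaffold Psmd1, the lid genes Psmd6, Psmd7 and Psmd14, the activator Psme4 and the chaperones Psmg2 and Psmg3. Lower were the ATPase Psmc6, the ubiquitin receptor Psmd4 and the lid gene Psmd8. The balance rests on the scale, since iTreg vehicle libraries had TMM factors of 1.07 to 1.09 and Th17n vehicle libraries of 0.958 to 0.993: with library totals alone 33 genes were higher and 1 lower, with a median of 0.17 over all genes, and on log2(TPM + 1) likewise 33 and 1, with a median of 0.15. Without animal 1, 2 and 3 the counts were 5 higher and 2 lower, 16 and 1, and 12 and 2. All genes called numbered 2784, 2861 and 3493 in these fits, against 4301 with all animals.

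Psmc6 set itself apart from the other ATPases. It stood at 322, 313 and 319 CPM in Th17p, 365, 346 and 315 CPM in Th17n and 233, 245 and 249 CPM in iTreg vehicle libraries. The iTreg libraries lay below all others, with a change of -0.50 ± 0.07 against Th17n (adjusted p = 4.2e-06) and -0.39 ± 0.07 against Th17p cells (adjusted p = 8.9e-05). Psmd4 stood at 226, 204 and 202 CPM in Th17p, 236, 231 and 236 CPM in Th17n and 181, 202 and 206 CPM in iTreg libraries. Psmd8 stood at 358, 370.3 and 327 CPM in Th17p, 359.9, 398 and 364 CPM in Th17n and 312, 319 and 314 CPM in iTreg libraries. For both genes the iTreg libraries lay below the Th17n libraries. Their calls in iTreg against Th17n (-0.25 ± 0.08 and -0.25 ± 0.07) were lost with library totals alone (-0.10 and -0.09) and on log2(TPM + 1) (-0.07 and -0.06). The Psmd4 call was also lost without any 1 animal (-0.18 to -0.28), and the Psmd8 call without animal 2 (-0.18).

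In iTreg against Th17p vehicle cells 3 of 44 genes were higher and 3 lower, against 14.5% and 15.7% of all genes, and the median change was -0.03. The 3 higher genes were all activators. Psme1 stood at 329, 301 and 337 CPM in Th17p and 435, 422 and 489 CPM in iTreg libraries (0.48 ± 0.08, adjusted p = 7.3e-05). Psme2 stood at 328, 343 and 342 against 449, 514 and 517 CPM (0.55 ± 0.08, adjusted p = 1.7e-05), and Psme3 at 39.7, 43.7 and 39.6 against 71.8, 56.0 and 61.8 CPM (0.62 ± 0.10, adjusted p = 9.1e-05). Each group of iTreg libraries lay above the Th17p libraries. The lower genes were Psmc6, Psma3 (-0.22 ± 0.07, adjusted p = 0.021) and Psma5 (-0.21 ± 0.07, adjusted p = 0.025), and the last 2 calls were lost with library totals alone (-0.13 for each) and without animal 2 or 3.

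By pattern over the 3 vehicle comparisons, 10 genes were lower in Th17n than in Th17p and higher in iTreg than in Th17n cells without a call between iTreg and Th17p (Psma4, Psma6, Psmb5, Psmc1, Psmc2, Psmc3, Psmc5, Psmd1, Psmd6, Psmd7). The same pattern was found in 4.48% of all genes tested, and both comparisons share the Th17n vehicle libraries. Without animal 1, 2 and 3 the number was 2, 3 and 4. The genes Psme1, Psme2 and Psme3 were higher in iTreg cells than in both Th17 lineages, and Psmc6 was lower than in both. No call in any of the 3 comparisons was made for 17 of the 44 genes. Shares of all genes with these other patterns were not counted here.

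**Figure D2:**
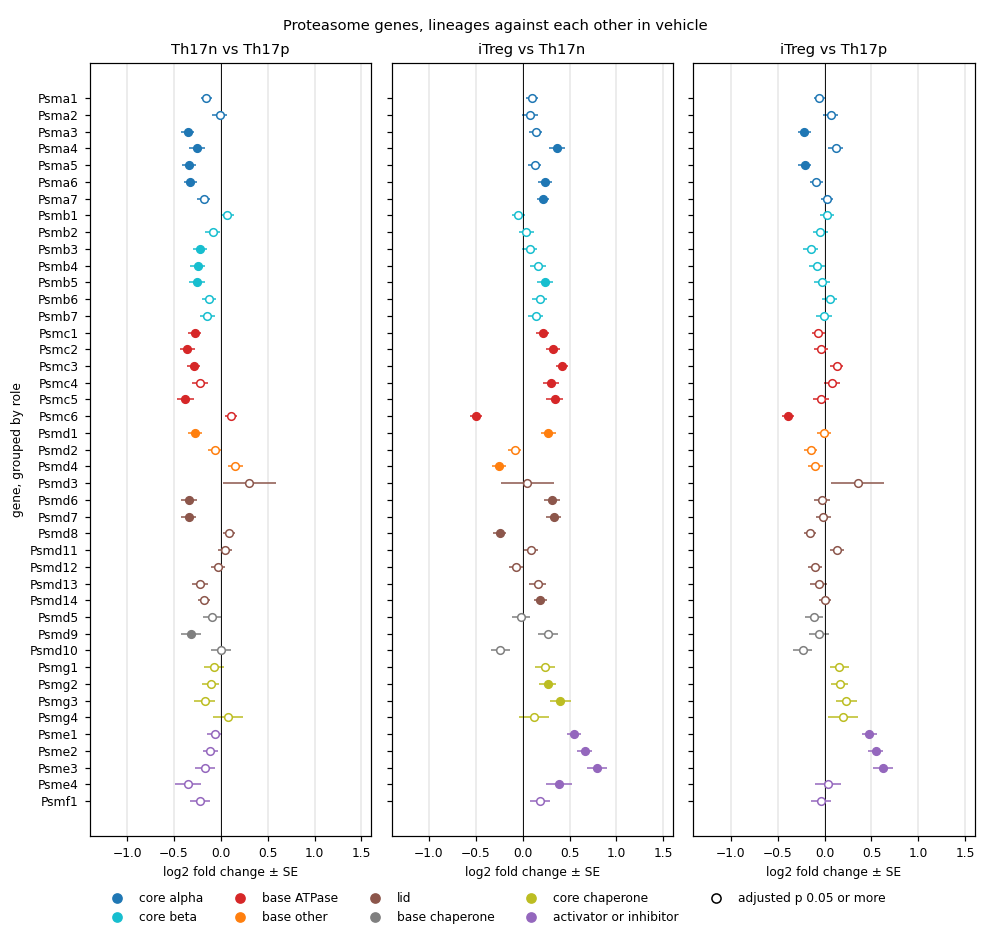
Log2 fold change ± SE of 43 proteasome genes between lineages in vehicle (Psmb11 and Psma8 are not drawn), with filled points at an adjusted p under 0.05. In Th17n against Th17p cells 15 filled points lie below 0 and none above, and in iTreg against Th17p cells the filled points above 0 are Psme1, Psme2 and Psme3.

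The second question was what DFMO does to the same genes. The proteasome genes did not move as a block: most called base, lid and core genes rose, while the activators split into genes that rose and genes that fell. The 17 base and lid genes had medians of 0.29 (Th17p), 0.45 (Th17n) and 0.23 (iTreg), and the 14 core genes without Psmb11 had medians of 0.10, 0.21 and 0.17. In Th17p cells 16 of 44 genes rose and 4 fell, against 15.9% and 17.1% of all genes. In Th17n cells 24 rose and 5 fell, against 22.8% and 23.7% of all genes. In iTreg cells 17 rose and 4 fell, against 18.3% and 19.2%. The medians of the 44 genes were 0.10, 0.22 and 0.16, against 0.00, -0.02 and -0.04 for all genes. The 3 comparisons have no library in common, but their libraries come from the same animals.

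The Th17n count was the steadiest, with 24 to 34 calls in every alternative tried. In Th17p cells leaving out animal 1, 2 or 3 gave 6 genes higher and 4 lower, 13 and 3, and 7 and 4, and in iTreg cells it gave 18 and 3, 10 and 3, and 14 and 3. All genes called numbered 2556, 2416 and 2632 in these Th17p fits, against 3797 with all animals. In iTreg cells they numbered 3643, 2488 and 3252, against 4329. The iTreg balance depends on the scale: TMM factors were 1.07 to 1.09 in iTreg vehicle and 0.957 to 0.969 in iTreg DFMO libraries. With library totals alone 11 genes rose and 8 fell there, while the median of all genes was -0.21, and on log2(TPM + 1) 7 rose and 10 fell, with a median of -0.19. Relative to the median of all genes the median of the 44 genes stayed above it on each scale (0.00 with library totals and -0.06 on log2(TPM + 1)).

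Across the lineages 15 genes rose in all 3 (Psma5, Psma7, Psmb3, Psmb4, Psmc1, Psmc2, Psmc3, Psmc4, Psmc5, Psmd1, Psmd6, Psmd7, Psmd9, Psme3, Psmg3) and 3 fell in all 3 (Psme1, Psme2, Psme4), against 8.57% and 8.25% of all genes tested. With library totals alone 9 of the 15 were called in all 3 lineages and on log2(TPM + 1) 7, although all 15 kept a positive value in iTreg cells on both scales. Without animal 1, 2 and 3 the number was 6, 8 and 7. Some of the 15 rest in part on shared reads. Psmd9 values were not whole in any run, and those of Psmb3, Psma5 and Psmc1 in 86.1%, 50% and 38.9% of the run values. The calls of Psmd9 and Psmb3 are uncertain here too. The 3 genes that fell were called in each lineage in every alternative. No call in any lineage was made for 13 genes: Psma1, Psma2, Psma4, Psmb2, Psmb7, Psmb11, Psmd3, Psmd4, Psmd5, Psmd10, Psmd11, Psmg1 and Psmg4. The share of all genes without a call in any lineage was not counted here.

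**Figure D3:**
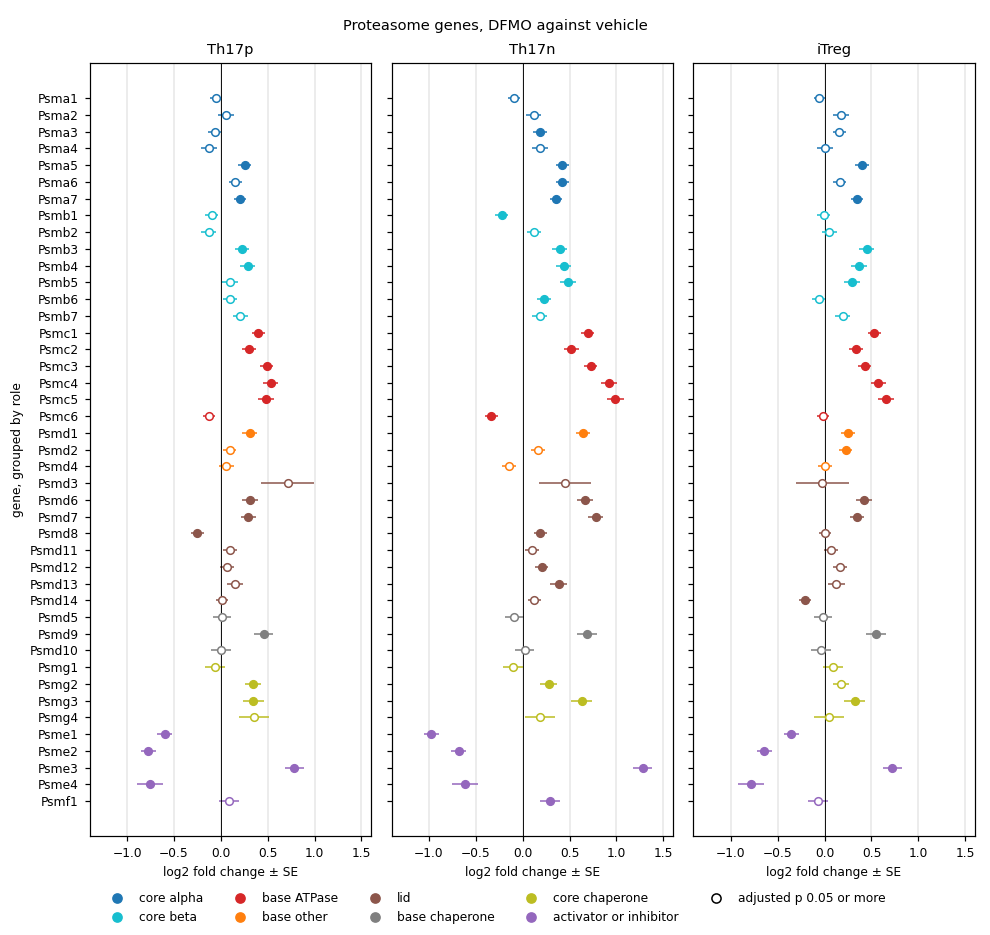
Log2 fold change ± SE of 43 proteasome genes with DFMO against vehicle in each lineage (Psmb11 and Psma8 are not drawn), coloured by role, with filled points at an adjusted p under 0.05. ATPases other than Psmc6 lie to the right in each panel, Psme1, Psme2 and Psme4 to the left, and Psme3 farthest to the right in Th17n cells at 1.28.

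Among the roles, the ATPase ring had the largest share of genes that rose. Psmc1, Psmc2, Psmc3, Psmc4 and Psmc5 rose in each lineage, 5 of 6 genes, with role medians of 0.44 (Th17p), 0.71 (Th17n) and 0.48 (iTreg). With library totals alone and on log2(TPM + 1), 4 of 6 rose and Psmc6 fell in iTreg cells. Psmc5 (chromosome 11, 106256154 to 106263120, + strand, GRCm38), whose promoter is printed above, stood at 192, 174 and 159 CPM in Th17p vehicle and 256, 222 and 255 CPM in Th17p DFMO libraries, a rise of 0.48 ± 0.09 (adjusted p = 0.00025). In Th17n cells it stood at 129.7, 122 and 152 against 282, 252 and 267 CPM (0.99 ± 0.09, adjusted p = 1.7e-08), and in iTreg cells at 177, 163 and 172 against 275, 272 and 259 CPM (0.66 ± 0.09, adjusted p = 6e-06). The DFMO libraries lay above the vehicle libraries in all 3 lineages. Th17n vehicle libraries were the lowest of all groups.

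Psmc4 (chromosome 7, 28041707 to 28050101, - strand) went from 197, 174 and 173 to 277, 253 and 256 CPM in Th17p cells (0.53 ± 0.08), from 146, 155 and 165 to 298, 299.9 and 283 CPM in Th17n cells (0.92 ± 0.08) and from 218, 171 and 187 to 287, 294 and 276 CPM in iTreg cells (0.57 ± 0.08). Psmc3 (chromosome 2, 91054009 to 91066369, + strand) went from 211, 196 and 215 to 303, 276 and 293 CPM (0.49 ± 0.07), from 175, 163 and 169.7 to 278, 279 and 282 CPM (0.72 ± 0.07) and from 239, 216 and 225 to 303, 315 and 294 CPM (0.43 ± 0.07) in the same order. No DFMO library of either gene was as low as any vehicle library of its lineage. Psmc1 rose by 0.40 ± 0.07, 0.69 ± 0.07 and 0.53 ± 0.07 and Psmc2 by 0.30 ± 0.08, 0.52 ± 0.08 and 0.33 ± 0.08. Psmc2 lost its iTreg call with library totals alone (0.17) and on log2(TPM + 1) (0.11).

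Psmc6 was the exception within the ring. It stood at 303, 282 and 288 CPM in Th17p, 277, 269 and 268 CPM in Th17n and 244, 241 and 233 CPM in iTreg DFMO libraries. Against the vehicle levels given above it fell in Th17n cells (-0.33 ± 0.07, adjusted p = 0.00027) and was not called in Th17p (-0.13 ± 0.07, adjusted p = 0.14) or iTreg cells (-0.02 ± 0.07, adjusted p = 0.88).

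Among the other base genes, the scaffold Psmd1 rose in each lineage. It went from 252, 287 and 256 to 330.1, 318 and 334 CPM in Th17p (0.31 ± 0.08), from 208, 217 and 231 to 354, 348 and 324 CPM in Th17n (0.65 ± 0.08) and from 277, 247 and 269.7 to 303, 343 and 296 CPM in iTreg cells (0.25 ± 0.08, 0.08 and not called with library totals alone, and 0.12 and not called without animal 2). DFMO and vehicle libraries were apart in each lineage. Psmd2, the second scaffold, rose in iTreg cells alone (0.23 ± 0.07, adjusted p = 0.015), with 0.06 and no call on library totals alone and no call without animal 2 (0.12) or 3 (0.27), and a call in 1 lineage does not show that the lineages differ. Psmd4, a ubiquitin receptor, stood at 233, 216 and 209 CPM in Th17p DFMO libraries, at 208, 222 and 205 CPM in those of Th17n and at 180.0, 207 and 203 CPM in those of iTreg cells, and had no call (0.06 ± 0.08, -0.15 ± 0.08 and 0.00 ± 0.08).

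In the lid 2 of 8 genes rose and 1 fell in Th17p cells. In Th17n cells 5 rose and 0 fell (Psmd6, Psmd7, Psmd8, Psmd12, Psmd13), and in iTreg cells 2 rose and 1 fell. Of all genes 15.9% rose and 17.1% fell in Th17p, 22.8% and 23.7% in Th17n and 18.3% and 19.2% in iTreg cells. The lid counts in Th17p and iTreg cells (25% and 12.5% in both) are not far from these shares. Psmd7, which pairs with the deubiquitinase, went from 219.5, 226 and 224 to 284, 277 and 261 CPM in Th17p (0.29 ± 0.08), from 163, 176 and 188 to 324, 305 and 278 CPM in Th17n (0.78 ± 0.08) and from 232, 222 and 209.8 to 280.2, 302 and 259.8 CPM in iTreg cells (0.34 ± 0.08). Psmd6 rose in each lineage too, by 0.31 ± 0.08, 0.67 ± 0.09 and 0.42 ± 0.08. Psmd14, the deubiquitinase that cuts the chain off the substrate, stood at 279.7, 293 and 279 against 289, 277 and 293 CPM in Th17p vehicle and DFMO libraries (0.01 ± 0.07), at 245, 247 and 258 against 291, 279 and 249 CPM in Th17n (0.12 ± 0.07) and at 282, 281 and 292 against 250.1, 246 and 242 CPM in iTreg cells (-0.21 ± 0.07, adjusted p = 0.015). Its libraries were apart in iTreg cells, with DFMO below vehicle. This fall was its only call under DFMO, and it was lost without any 1 of the 3 animals (-0.18 to -0.23). Psmd8 fell in Th17p cells, from 358, 370.3 and 327 to 308, 294 and 285 CPM (-0.25 ± 0.07, adjusted p = 0.0068), and rose in Th17n cells, from 359.9, 398 and 364 to 449, 418 and 412 CPM (0.19 ± 0.07, adjusted p = 0.025). The fall lost its call without animal 2 (-0.21) and the rise without animal 1 (0.14) or 3 (0.19). Of the 44 genes only Psmd8 had calls in opposite directions under DFMO, and the share of all genes that did was not counted here. In iTreg DFMO libraries Psmd8 stood at 315, 323 and 311 CPM without a call (0.01 ± 0.07). Psmd3 had a change of 0.71 ± 0.28 in Th17p cells without a call (adjusted p = 0.07): animal 1 of the vehicle libraries stood at 107 CPM and the other two at 207 and 198 CPM, and in iTreg DFMO libraries animal 2 stood at 117 CPM beside 255 and 271 CPM.

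In the core particle 2 of 7 alpha genes rose in Th17p cells, 4 rose in Th17n cells, 2 rose in iTreg cells, and none fell. For these and the beta genes, the shares of all genes are those given for the lid. Psma5 and Psma7 rose in all lineages, Psma5 by 0.25 ± 0.07, 0.42 ± 0.07 and 0.40 ± 0.07. Of 8 beta genes 2 rose in Th17p, 4 rose and 1 fell (Psmb1, -0.23 ± 0.07, not called without animal 2 or 3) in Th17n, and 3 rose in iTreg cells. The catalytic subunits were Psmb5, with chymotrypsin-like activity, Psmb6, with caspase-like activity, and Psmb7, with trypsin-like activity. Psmb5 (chromosome 14, 54614119 to 54618022, - strand) stood at 257, 258 and 242 against 290.1, 261 and 257 CPM in Th17p vehicle and DFMO libraries (0.09 ± 0.09, not called), at 216, 198 and 219 against 309, 283 and 291 CPM in Th17n cells (0.48 ± 0.09, adjusted p = 0.0001) and at 285, 228 and 232 against 292, 331 and 291 CPM in iTreg cells (0.30 ± 0.09, adjusted p = 0.0092). DFMO and vehicle libraries were apart in Th17n and iTreg cells and overlapped in Th17p cells. The iTreg call was lost with library totals alone (0.13), on log2(TPM + 1) (0.08) and without animal 2 (0.17) or 3 (0.28).

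Psmb6 stood at 272, 322 and 299 against 336, 299 and 321 CPM in Th17p vehicle and DFMO libraries (0.10 ± 0.08), at 262, 282 and 274 against 319, 308 and 333 CPM in Th17n (0.23 ± 0.08, adjusted p = 0.017, not called without animal 1 or 3) and at 319, 290.0 and 318 against 295, 277 and 316 CPM in iTreg cells (-0.06 ± 0.08). Psmb7 stood at 152, 170.2 and 147 against 196, 175 and 170.3 CPM in Th17p (0.21 ± 0.08), at 139, 139 and 146 against 175, 159 and 148 CPM in Th17n (0.18 ± 0.08) and at 156, 148 and 163 against 172, 183 and 179 CPM in iTreg cells (0.19 ± 0.08). DFMO libraries of Psmb7 lay above the vehicle libraries of their lineage in all 3 lineages without passing the test (adjusted p of 0.057, 0.076 and 0.068), whereas the Psmb6 groups were apart in Th17n cells only. Processed pseudogenes of Psmb5, Psmb6 and Psmb7 exist in the mouse annotation and were not in the count table, so reads from them cannot be told apart here, and 16.7%, 2.78% and 5.56% of the run values of the 3 genes were not whole.

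The activators included the largest called change in each lineage, and went in both directions. Psme3 (chromosome 11, 101316213 to 101323537, + strand), the ring found in the nucleus, went from 39.7, 43.7 and 39.6 to 72.0, 64.3 and 75.8 CPM in Th17p cells, a rise of 0.78 ± 0.10 (adjusted p = 8.5e-06). In Th17n cells it went from 35.8, 35.3 and 38.4 to 92.1, 81.9 and 92.0 CPM (1.28 ± 0.11, adjusted p = 5.8e-09), and in iTreg cells from 71.8, 56.0 and 61.8 to 97.3, 103 and 113 CPM (0.72 ± 0.10, adjusted p = 1.1e-05). Every DFMO library lay above every vehicle library of its lineage, and no called member rose more in any lineage.

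The PA28 pair of the cytoplasm, known for its induction by interferon-gamma and its role in antigen processing, went the other way. Psme1 (chromosome 14, 55578123 to 55581529, + strand) went from 329, 301 and 337 to 219.9, 209 and 208 CPM in Th17p (-0.60 ± 0.08, adjusted p = 7.8e-06), from 309, 319.6 and 294 to 172, 140.4 and 157 CPM in Th17n (-0.98 ± 0.08, adjusted p = 5.5e-09) and from 435, 422 and 489 to 344, 340.2 and 367 CPM in iTreg cells (-0.36 ± 0.08, adjusted p = 0.0012). Psme2 (chromosome 14, 55587441 to 55591113, - strand) went from 328, 343 and 342 to 203, 194 and 194 CPM (-0.78 ± 0.08), from 314, 313 and 309 to 218, 188 and 177 CPM (-0.68 ± 0.08) and from 449, 514 and 517 to 289, 317 and 338 CPM (-0.65 ± 0.08) in the same order. DFMO and vehicle libraries did not overlap for either gene in any lineage.

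Psme4 (chromosome 11, 30771726 to 30880361, + strand), the activator known for a role in chromatin and DNA repair, fell from 49.98, 38.4 and 37.6 to 21.2, 26.1 and 26.8 CPM in Th17p (-0.76 ± 0.14, adjusted p = 0.00028), from 34.9, 33.0 and 30.8 to 19.7, 23.0 and 21.5 CPM in Th17n (-0.62 ± 0.14, adjusted p = 0.0012) and from 48.2, 41.9 and 39.3 to 25.1, 22.5 and 27.6 CPM in iTreg cells (-0.78 ± 0.14, adjusted p = 0.00016). Each DFMO library was below each vehicle library of its lineage. Psmf1, an inhibitor of the core, stood at 93.7, 76.6 and 85.7 against 92.0, 86.2 and 93.7 CPM in Th17p (0.09 ± 0.11), at 75.0, 67.8 and 77.2 against 85.6, 89.4 and 93.6 CPM in Th17n (0.29 ± 0.11, adjusted p = 0.032) and at 83.6, 78.4 and 87.5 against 66.5, 92.6 and 77.6 CPM in iTreg cells (-0.07 ± 0.11). Its Th17n rise was its only call, and it was lost without animal 2 (0.24) or 3 (0.29).

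**Figure D4:**
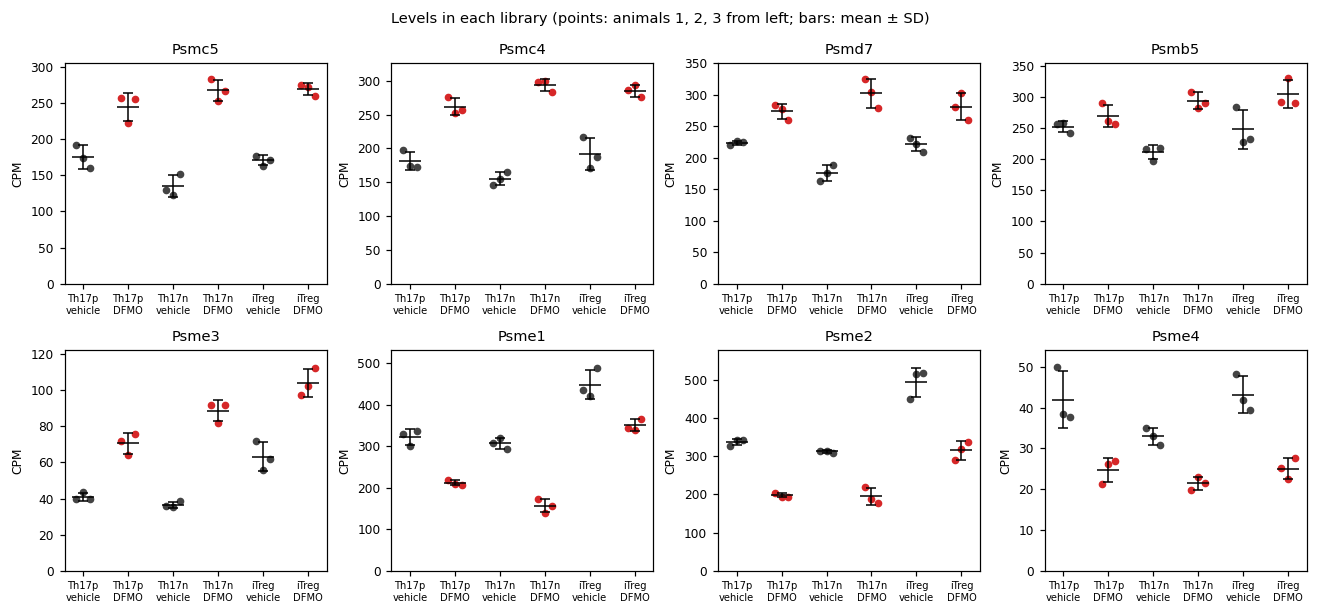
CPM of 8 proteasome genes in each of the 18 libraries (points, animals 1 to 3 from left, vehicle dark and DFMO red) with mean ± SD. Psmc5, Psmc4, Psmd7 and Psme3 lie higher and Psme1, Psme2 and Psme4 lower in DFMO than in vehicle libraries of each lineage without overlap, whereas the Psmb5 groups overlap in Th17p cells, where 1 DFMO library (257 CPM) lies below the highest vehicle library (258 CPM).

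Among the assembly chaperones, Psmg3 rose in all lineages and Psmg2 in both Th17 lineages. Psmg3 went from 36.7, 37.0 and 34.3 to 51.0, 41.3 and 44.9 CPM in Th17p (0.35 ± 0.11), from 33.0, 31.0 and 31.7 to 53.9, 49.6 and 44.6 CPM in Th17n (0.63 ± 0.11) and from 47.7, 38.5 and 40.4 to 51.9, 55.1 and 50.6 CPM in iTreg cells (0.32 ± 0.11, 0.15 and not called with library totals alone, and not called without animal 2, at 0.21, or 3, at 0.32). Psmg2 went from 91.0, 102 and 78.6 to 122, 114 and 108 CPM (0.34 ± 0.09), from 81.8, 84.1 and 86.5 to 105, 102 and 98.8 CPM (0.27 ± 0.09) and from 97.2, 101 and 106 to 106, 119 and 118 CPM (0.17 ± 0.09, not called) in the same order. These proteins build the alpha ring in pairs, Psmg1 with Psmg2 and Psmg3 with Psmg4, and the partners were not called. Psmg1 stood at 66.6 to 75.0, 55.9 to 77.8 and 78.3 to 82.0 CPM in vehicle and at 67.3 to 70.3, 57.3 to 67.0 and 81.8 to 90.2 CPM in DFMO libraries of Th17p, Th17n and iTreg cells (-0.06 ± 0.11, -0.11 ± 0.11 and 0.09 ± 0.10). Psmg4 stood at 20.3 to 28.4, 21.3 to 28.0 and 26.2 to 29.6 CPM and at 28.0 to 34.6, 23.9 to 34.3 and 27.6 to 30.1 CPM (0.35 ± 0.16, 0.18 ± 0.16 and 0.05 ± 0.16). Of the base chaperones, Psmd9 had rises of 0.46 ± 0.10, 0.69 ± 0.11 and 0.55 ± 0.10, on counts that were never whole, while Psmd5 and Psmd10 had no call.

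Ratios of summed TPM within a library do not depend on the scaling between libraries. The regulatory particle (17 base and lid genes) against the core (alpha and beta genes) stood at 0.454 to 0.463 in Th17p vehicle and 0.492 to 0.513 in Th17p DFMO libraries, with means of 0.458 and 0.502. In Th17n cells it stood at 0.462 to 0.485 and 0.526 to 0.541 (means 0.476 and 0.535), and in iTreg cells at 0.436 to 0.466 and 0.468 to 0.477 (means 0.456 and 0.473). The DFMO libraries lay above the vehicle libraries in each lineage, by the smallest margin in iTreg cells. With 3 libraries against 3 an exact permutation test cannot go below a two-sided p of 0.10, and none was run on these sums, whose members differ in direction.

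The ratio of Psme1 and Psme2 to the core separated the groups too. It stood at 0.157 to 0.171 in vehicle and 0.0927 to 0.0989 in DFMO libraries of Th17p cells, at 0.166 to 0.176 and 0.0815 to 0.0892 in Th17n cells and at 0.208 to 0.258 and 0.139 to 0.160 in iTreg cells, without overlap in any lineage. Psme3 against Psme1 and Psme2 had means of 0.0178 and 0.050 in Th17p, 0.0169 and 0.0725 in Th17n and 0.0194 and 0.0455 in iTreg vehicle and DFMO libraries. The inducible catalytic genes Psmb8, Psmb9 and Psmb10, which replace Psmb5, Psmb6 and Psmb7 in the immunoproteasome, stood against these 3 at means of 0.954 and 0.682 in Th17p, 0.943 and 0.515 in Th17n and 1.35 and 0.857 in iTreg cells. The 45 genes together made up 1.21% of the listed TPM in Th17p vehicle and 1.21% in DFMO libraries, with overlapping groups. In Th17n cells the share was 0.992% to 1.10% in vehicle and 1.16% to 1.21% in DFMO libraries. In iTreg cells it was 1.27% to 1.35% and 1.15% to 1.23%, so that the groups were apart in opposite directions. Such a share also depends on the levels of all other genes. On log2(TPM + 1) the median DFMO change of the 44 genes was 0.30 in Th17n and -0.06 in iTreg cells. The medians of all genes tested were 0.04 and -0.19 on that scale, so the lower iTreg share is no fall beyond that of all genes. The iTreg sum in TPM had means of 9767 in vehicle and 9107 in DFMO libraries. Psme1 and Psme2 together had means of 1302 and 784 TPM there, without overlap. The core genes (5468 and 5317) and the base and lid genes (2488 and 2518) overlapped.

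**Figure D5:**
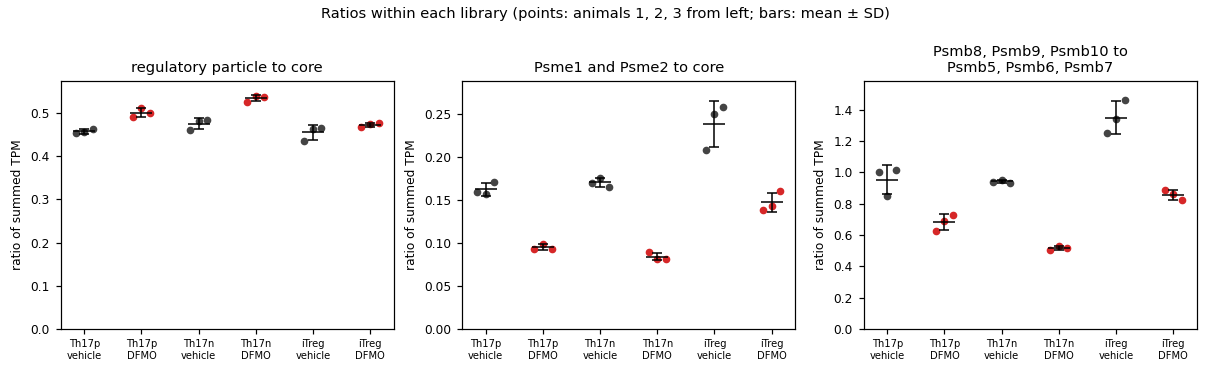
Ratios of summed TPM within each library (points, animals 1 to 3 from left) with mean ± SD: base and lid genes to core genes, Psme1 and Psme2 to core genes, and Psmb8, Psmb9 and Psmb10 to Psmb5, Psmb6 and Psmb7. In each lineage the DFMO libraries lie above the vehicle libraries in the first panel and below them in the other panels.

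Whether the lineages differ in their response was tested as a difference of DFMO effects, each using the libraries of 2 lineages. The response in Th17n minus that in Th17p cells was higher for 3 of 44 genes and lower for 0, against 2.63% and 2.35% of all genes: Psmc5 (0.51 ± 0.12, adjusted p = 0.022), Psmd7 (0.49 ± 0.11, adjusted p = 0.013) and Psmd8 (0.44 ± 0.09, adjusted p = 0.0098). The median difference over the 44 genes was 0.16, against 0.00 for all genes. This difference contains the same vehicle libraries that gave the genes lower in Th17n than in Th17p vehicle cells. Psmc5 and Psmd7 were called in both, so a low Th17n vehicle level and a larger response are not independent results. With the animal as a replicate block 6 genes were higher and 1 lower, since Psmb5, Psmc4 and Psme3 joined on the higher and Psme1 on the lower side, and DESeq2 gave 8 higher and 1 lower. Without animal 1, 2 and 3 the count was 0, 0 and 2. All genes called numbered 97, 27 and 331 in these fits, against 574 with all animals.

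The response in iTreg minus that in Th17n cells was higher for 2 and lower for 5 genes, against 6.66% and 5.45% of all genes. Psme1 (0.62 ± 0.11, adjusted p = 0.0012) fell less in iTreg cells, and Psmc6 had a difference of 0.32 ± 0.09 (adjusted p = 0.028). Lower were Psme3 (-0.56 ± 0.15, adjusted p = 0.016), Psmd7 (-0.44 ± 0.11), Psmd1 (-0.40 ± 0.11), Psmd14 (-0.34 ± 0.09) and Psmc3 (-0.30 ± 0.09, adjusted p = 0.044). With library totals alone 1 gene (Psme1) was higher and 18 lower, with a median of -0.21 over all genes, and on log2(TPM + 1) 0 were higher and 24 lower, with a median of -0.25 over all genes, a scale on which the calls of Psme1 (0.32) and Psmc6 (0.01) were lost. Without animal 1, 2 and 3 the counts were 1 higher and 0 lower, 0 and 0, and 1 and 2, and Psme1 was at 0.48 without animal 2. All genes called numbered 388, 277 and 1177 in these fits, against 1396 with all animals.

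Between iTreg and Th17p cells no response differed by edgeR's test (0 of 44, against 3.52% higher and 3.32% lower of all genes). At an unadjusted p under 0.05 edgeR gave 4 genes, Psma3, Psmd8 and Psme1 with higher and Psmd14 with lower values in iTreg cells. The share of all genes under that unadjusted threshold was not counted here, so the 4 genes are no result about the members. DESeq2 called 1 gene, Psmd8 (0.29). On log2(TPM + 1) limma called 3 genes lower (Psmb6 at -0.40, Psmd14 at -0.46 and Psmg4 at -0.51), with a median of -0.20 over all genes.

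Genes that work with the proteasome were taken from a list of 57, of which 53 were in the table and 52 tested. Under DFMO 15 rose and 7 fell in Th17p, 21 and 9 in Th17n and 15 and 10 in iTreg cells, beside the shares of all genes given above, and their medians were 0.15, 0.24 and -0.06. In vehicle 3 were higher and 7 lower in Th17n than in Th17p cells (5.77% and 13.5%), against 9.47% and 10.5% of all genes. In iTreg against Th17n cells 10 were higher and 6 lower (19.2% and 11.5%), against 18.4% and 18.9% of all genes. In iTreg against Th17p cells 7 were higher and 6 lower (13.5% and 11.5%), against 14.5% and 15.7% of all genes. The inducible catalytic subunits fell wherever they were called. Psmb9 went from 121, 101 and 135 to 54.0, 62.2 and 65.5 CPM in Th17p (-0.97 ± 0.13), from 96.7, 86.4 and 89.9 to 45.6, 40.9 and 41.9 CPM in Th17n (-1.09 ± 0.13) and from 163, 181 and 233 to 63.9, 79.4 and 73.8 CPM in iTreg cells (-1.41 ± 0.13). Psmb8 had falls of -0.22 ± 0.06, -0.46 ± 0.06 and -0.28 ± 0.06, from a level of 642 to 681 CPM in Th17p vehicle libraries. Psmb10 fell in iTreg cells (-0.67 ± 0.15) and had no call in Th17p (-0.35 ± 0.15) or Th17n cells (-0.12 ± 0.16). In vehicle Psmb8, Psmb9 and Psmb10 were higher in iTreg than in Th17n cells by 0.57 ± 0.06, 1.08 ± 0.12 and 1.25 ± 0.16.

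Other partners of the complex gave mixed results. The ubiquitin receptor Adrm1, which sits on the base, rose in Th17p (0.21 ± 0.08, a call lost in every alternative except the replicate block) and Th17n cells (0.47 ± 0.08) and was at 0.01 ± 0.08 in iTreg cells. Pomp, the chaperone that helps the core to mature, rose in all lineages (0.25 ± 0.10, 0.42 ± 0.10 and 0.63 ± 0.10), although its Th17p libraries overlapped (215, 239 and 204 against 285, 229 and 271 CPM). AI314180, the adaptor known as Ecm29, was at 0.28 ± 0.12 and -0.21 ± 0.12 in the Th17 lineages without a call and fell in iTreg cells (-0.47 ± 0.12). Nfe2l1, the transcription factor known to raise proteasome genes when the complex is inhibited, had no call in Th17p (0.26 ± 0.18) or Th17n cells (-0.22 ± 0.18) and fell in iTreg cells (-0.68 ± 0.19, adjusted p = 0.0085), where vehicle libraries stood at 81.2, 123 and 123 and DFMO libraries at 52.3, 58.1 and 92.6 CPM and overlapped. That call was lost without animal 2 (-0.50). Nfyb, a subunit of the CCAAT-binding factor NF-Y, fell in Th17p (-0.42 ± 0.09) and Th17n cells (-0.96 ± 0.09) and was at -0.08 ± 0.09 in iTreg cells.

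In vehicle, the called genes of this list with the smallest p included Nfe2l2, the transcription factor of the oxidative stress response, lower in iTreg than in Th17p cells (-1.10 ± 0.11), and Nfyb, lower in iTreg than in both Th17 lineages (-1.03 ± 0.09 and -1.23 ± 0.09). The segregase Vcp (-0.27 ± 0.06), Psmb10 (-0.85 ± 0.16) and Zfand2a (-0.74 ± 0.19), a stress-induced protein that binds the proteasome, were lower and the ubiquitin-activating enzyme Uba1 (0.40 ± 0.06) higher in Th17n than in Th17p cells. Under DFMO the ubiquitin-conjugating enzyme Ube2s had rises of 1.06 ± 0.14 (Th17p), 0.96 ± 0.13 (Th17n) and 0.58 ± 0.13 (iTreg).

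Of the genes that tie the proteasome to ornithine decarboxylase, Oaz2 had the largest called change of the list in each lineage. Oaz1, the antizyme that delivers the enzyme to the proteasome, stood at 1051, 1032 and 1050.3 against 594, 543 and 591 CPM in Th17p vehicle and DFMO libraries (-0.86 ± 0.07), at 1064, 1052 and 1091 against 439, 421 and 455 CPM in Th17n (-1.29 ± 0.07) and at 1145, 1045 and 1069 against 596, 518 and 521 CPM in iTreg cells (-0.99 ± 0.07). Oaz2, another antizyme, had falls of -2.08 ± 0.16, -2.76 ± 0.17 and -2.81 ± 0.17, and Azin1, the antizyme inhibitor, rose by 1.27 ± 0.10, 1.64 ± 0.10 and 0.84 ± 0.10. All 3 genes kept vehicle and DFMO libraries apart in each lineage. Odc1, the DFMO target, rose in Th17p (0.67 ± 0.13), was at 0.20 ± 0.13 without a call in Th17n and fell in iTreg cells (-0.57 ± 0.14). DFMO inhibits the enzyme and does not delete its gene, so the Odc1 transcript does not check the treatment.

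Psmc3ip, which the naming rule also found, stood at 15.9, 15.5 and 16.2 CPM in Th17p, 13.7, 17.8 and 20.3 CPM in Th17n and 24.9, 25.2 and 26.4 CPM in iTreg vehicle libraries. It was higher in iTreg than in Th17p (0.69 ± 0.15, adjusted p = 0.0015) and Th17n cells (0.56 ± 0.15, adjusted p = 0.0064), where the second call was lost without animal 1 (0.44) or 2 (0.62). DFMO gave no call in any lineage (0.29 ± 0.15, 0.23 ± 0.15 and 0.07 ± 0.15).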

How the data were processed

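Libraries were full-length, paired-end RNA-seq. Each of the 18 libraries (6 groups, 3 animals) was deposited as 2 sequencing runs, and the 36 run columns all matched a sample title. Per the submitters' processing notes, Bowtie2 and RSEM were used on GRCm38.p3. For the annotation, the strand setting and tool versions the entry is: not given in the sources used here. RSEM expected counts and TPM per gene and run were what the authors deposited. Listed genes summed to 72.4% to 80.5% of the total that TPM add to, and other genes were not analysed here.

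Runs of a library were summed and the expected counts rounded to whole numbers (12.2% of run values were not whole). TPM were averaged over runs. Libraries held 8307662 to 13986943 counts. Genes were filtered with filterByExpr, and 11526 were fitted with edgeR 4.0.16 (R 4.3.3, robust quasi-likelihood, TMM) on all 18 libraries with 1 mean per group. SE is the log2 fold change over the root of F. Adjusted p are Benjamini-Hochberg over all genes tested, with calls at 0.05.

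Same-numbered libraries come from the same animal. Deviations from group means correlated with a median r of 0.202 over 45 pairs from the same animal (-0.0617 to 0.379) and -0.097 over 90 pairs from different animals. The animal entered as a replicate block in an alternative. Other alternatives were DESeq2 1.42.0, library totals, RLE factors, no filter, each run alone, limma 3.58.1 on log2(TPM + 1) and log2(TPM + 0.1), only the groups compared, and leaving out each animal. The fit was tested on simulated data. Members and gene lists were chosen with earlier results of these data known. Genes named were the 3 largest called increases and decreases per comparison with a mean log2 CPM of at least 2, the 4 genes of the pathway list with the smallest p per comparison, and a set of catalytic, receptor, activator and chaperone genes named whatever their values. Others were named to describe counts and roles after their values were seen. Promoters were read from RefSeq (GRCm38.p6) and gene positions from the GRCm38 annotation. No amino acid sequence was used here. Of the pathway list and of the Th17 markers, 1 gene each is not reported here and was left out of their counts and sums.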

Additional observations from a re-analysis of the deposited data

Results flagged for a closer look

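The results named here are those in which the DFMO effect of one lineage differed from that of another by the test of the difference itself (edgeR, adjusted p under 0.05), each as a difference of log2 fold changes with n = 3 animals per group. Of the pathway list, up to 4 called genes with the smallest p are named per comparison.

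In Th17n minus Th17p cells the differences were 0.51 for Psmc5, 0.49 for Psmd7 and 0.44 for Psmd8 among the proteasome genes. They were -0.43 for the antizyme Oaz1 and -0.55 for the NF-Y subunit Nfyb among the genes of the pathway list.

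In iTreg minus Th17n cells Psme1 (0.62) and Psmc6 (0.32) were higher. Psme3 (-0.56), Psmd7 (-0.44), Psmd1 (-0.40), Psmd14 (-0.34) and Psmc3 (-0.30) were lower. Of the pathway list 4 of 52 genes were higher and 6 lower, against 6.66% and 5.45% of all genes tested. Among those with the smallest p Nfyb (0.88) was higher, and the antizyme inhibitor Azin1 (-0.80), the shuttle factor Ubqln4 (-1.11) and the receptor Adrm1 (-0.46) were lower. Both differences use the Th17n libraries, so a gene named in both is not 2 independent results.

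In iTreg minus Th17p cells no proteasome gene of the naming rule was called. Of the pathway list 2 of 52 genes were higher and 3 lower, against 3.52% and 3.32% of all genes tested. Among those with the smallest p the ubiquitin-conjugating enzyme Ube2l3 (0.36) was higher, and Odc1 (-1.24), AI314180 (-0.75) and Nfe2l1 (-0.95) were lower.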

How the results depend on the processing

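Of 484 pairs of gene and comparison, 176 were called. The replicate block, with the animal as a term, lost 0 of these calls and gained 10. It moved the count of proteasome genes called by over 1.5 times in 1 comparison, the Th17n minus Th17p effect, where it gave 7 against 3. The 2 values that reversed were both on the TPM scale and were called only there: Psma1 in iTreg minus Th17n was -0.27 with either pseudocount (0.03 in the counts), and Psmd8 with DFMO in iTreg cells was -0.21 with either (0.01).

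Counts of proteasome genes called (higher plus lower) ranged with 1 animal left out from 10 to 16 for DFMO in Th17p (20 with all animals), 13 to 21 in iTreg (21), 4 to 8 for Th17n against Th17p (15), 7 to 17 for iTreg against Th17n (22), 0 to 2 for Th17n minus Th17p (3) and 0 to 3 for iTreg minus Th17n (7). On log2(TPM + 1) and log2(TPM + 0.1) they were 24 and 23 for Th17n against Th17p, 34 and 34 for iTreg against Th17n, 24 and 24 for iTreg minus Th17n, and 3 and 3 for iTreg minus Th17p (0). With library totals alone they were 34 for iTreg against Th17n, 9 for Th17n minus Th17p, 19 for iTreg minus Th17n and 1 for iTreg minus Th17p. For Th17n minus Th17p DESeq2 gave 9, run 1 alone 5 and the fit on only the groups compared 8. For iTreg minus Th17n the fit without a filter gave 4 and run 1 alone 4, and for iTreg minus Th17p DESeq2 gave 1. All genes called with 1 animal left out were 2416 to 2632 for DFMO in Th17p (3797 with all animals). They were 2488 to 3643 for DFMO in iTreg (4329) and 944 to 1553 for Th17n against Th17p (2303). For iTreg against Th17n they were 2784 to 3493 (4301). On log2(TPM + 1) all genes called were 2426 for Th17n against Th17p, 4580 for iTreg against Th17n and 2563 for iTreg minus Th17n. The cause was not tested, except that leaving out an animal leaves fewer samples.

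Limits: 3 animals per group, bulk RNA, and a scale between libraries that decides most small iTreg differences. Low counts limit Psma8 and Psmb11 among the members. Counts of Psmd9, Psmd11, Psma4, Psmb3 and Psma2 were not whole in most runs, which marks reads shared with other sequences.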
